A study of Homo sapiens with 8 samples.

Results

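Fatty acid oxidation and peroxisome genes encode the enzymes that break down fatty acids by β-oxidation in mitochondria and peroxisomes, catalase, and the peroxins that build peroxisomes. A list of 35 such genes was used, and its members were the probe sets whose annotation gives 1 of these symbols alone. This found 56 probe sets of 32 genes among the 22283 probe sets of the array. SCP2, ACSL3 and PEX13 were matched by none, so their expression was not analysed here. Of the 56 probe sets, 45 (30 genes) were bright enough to be tested, and 13 of these genes were read by several. The 11 dim ones included every probe set of ACSL4, an acyl-CoA synthetase, and of PEX11A, a peroxin of peroxisome division.

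The arrays were Affymetrix expression arrays hybridized with RNA of a non-small cell lung cancer adenocarcinoma line that the labels do not name. The 4 groups were control medium (given as DMSO or control in the design text), 1 µM rosiglitazone, a synthetic ligand of the nuclear receptor PPARγ, 10 µM carboplatin, a platinum drug that crosslinks DNA, and both drugs. All were grown in medium with serum and treated for 24 h, and the doses in the combination are not restated. Each group had 2 arrays, and nothing says whether these came from separate cultures, so the p-values measure only the spread between arrays, which may be technical.

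Long-chain fatty acids are activated to acyl-CoA, carried into mitochondria as carnitine esters, and shortened in a repeated cycle of dehydrogenation, hydration, dehydrogenation and thiolysis. Peroxisomes run a related cycle on very long and branched chains, which makes hydrogen peroxide that catalase removes. Many of these genes are known targets of the PPAR family of lipid-sensing receptors.

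Array medians of the deposited signals ran from 36.2 to 54.3. Correlations between arrays, on normalized log2(signal + 16) of the probe sets tested, ran from 0.964 to 0.984. Of 7 epithelial marker genes 6 were above the brightness limit, from KRT18 at signals of 4180 to 6120 down to MUC1 at 31.5 to 63.9. EPCAM (2.66 to 28.2) was below it. Of 3 measured lung lineage genes, the surfactant genes SFTPB (33.1 to 59) and SFTPC (26.2 to 73.7) were above the limit and the factor NKX2-1 (2.79 to 29.3) below. These ranges are of each gene's brightest probe set, and those of MUC1, SFTPB and SFTPC lay around the array medians. Only 2 of 4 SFTPB and 1 of 5 SFTPC probe sets were above the limit. Markers above the limit numbered 2 of 5 for mesenchymal cells (COL1A1 and DCN), 1 of 3 measured for leukocytes (CD3E) and 1 of 3 for hepatocytes (CPS1). They numbered 0 of 3 for adipocytes and 0 of 3 for endothelium. The brightest probe sets were at 86.8 to 158 (COL1A1), 30.3 to 70 (DCN) and 28 to 93.5 (CD3E). That of CPS1, at 18.7 to 35.7, stayed below the lowest array median. Values from here on are normalized log2(signal + 16), and changes are log2 differences with the limma standard error. Levels of different probe sets cannot be compared with each other. The PPAR targets ANGPTL4, PLIN2 and PDK4 were higher in the 4 arrays with rosiglitazone (8.91 to 9.65, 10.67 to 10.93 and 6.22 to 7.34) than in the 4 without (6.18 to 6.87, 9.05 to 9.28 and 4.92 to 5.69). CDKN1A, a p53 target, was at 8.75 to 9.34 with carboplatin and 7.43 to 7.62 without.

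The promoters of 4 of the 5 genes that rose with rosiglitazone are shown because they are the regions nearest to the start of the transcripts that changed. The other gene, ECH1, had no window among the promoters available, so its promoter was not searched. Each is the RefSeq window on GRCh38.p14 from 250 bases before to 50 after the start site, on the gene's own strand. PPAR binds with its partner RXR to a direct repeat, here searched on both strands as 2 copies of AGGTCA with 1 base between. Capitals mark the stretch closest to that repeat in ACAA2 and ETFA and, in CAT, the GC box GGGCGG. The ETFA window also holds 1 GC box, in the opposite orientation (ccgccc), which is not marked. The CPT1A window has neither.
ACAA2, chr18:49813484-49813783, - strand: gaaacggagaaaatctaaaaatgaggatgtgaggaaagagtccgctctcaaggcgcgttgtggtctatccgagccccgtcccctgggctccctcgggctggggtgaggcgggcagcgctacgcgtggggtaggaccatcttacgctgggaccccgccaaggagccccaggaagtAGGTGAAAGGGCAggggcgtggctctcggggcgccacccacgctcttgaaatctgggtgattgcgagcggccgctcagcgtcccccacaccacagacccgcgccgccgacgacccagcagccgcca
CAT, chr11:34438684-34438983, + strand: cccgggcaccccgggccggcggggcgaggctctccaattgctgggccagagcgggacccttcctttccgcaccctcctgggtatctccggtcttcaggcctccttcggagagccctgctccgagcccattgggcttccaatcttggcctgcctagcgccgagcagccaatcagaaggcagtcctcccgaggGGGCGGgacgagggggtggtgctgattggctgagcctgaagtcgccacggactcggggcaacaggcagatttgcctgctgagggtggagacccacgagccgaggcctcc
CPT1A, chr11:68844228-68844527, - strand: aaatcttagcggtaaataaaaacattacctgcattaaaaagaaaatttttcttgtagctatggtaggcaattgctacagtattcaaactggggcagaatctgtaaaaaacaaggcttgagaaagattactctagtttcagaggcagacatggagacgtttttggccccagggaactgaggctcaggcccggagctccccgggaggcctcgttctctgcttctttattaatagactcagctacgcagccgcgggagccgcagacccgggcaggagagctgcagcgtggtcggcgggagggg
ETFA, chr15:76311420-76311719, - strand: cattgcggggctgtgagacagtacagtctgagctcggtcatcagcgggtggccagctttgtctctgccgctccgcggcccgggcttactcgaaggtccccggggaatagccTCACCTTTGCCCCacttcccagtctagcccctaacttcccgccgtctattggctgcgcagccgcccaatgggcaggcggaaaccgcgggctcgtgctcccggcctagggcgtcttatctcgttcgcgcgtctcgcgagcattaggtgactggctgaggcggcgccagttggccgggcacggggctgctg

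Of the 35 listed genes, 30 had a promoter window, with 43 windows in all. They include SCP2, ACSL3 and PEX13, which had no probe set, and ACSL4 and PEX11A, which were too dim to test. The tested genes ECH1, ACAA1, PEX14, DECR1 and ETFDH had none, so these 30 genes are not the 30 tested. Neither the exact repeat nor a single AGGTCA or TGACCT was in any of the 43 windows. Over all 35116 windows of the same length 13.8% held a single copy and 0.0228% the exact repeat. The ACAA2 stretch AGGTGAAAGGGCA begins 76 bases before the start site and differs from the repeat at 2 of its 12 fixed letters. The ETFA stretch, which reads GGGGCAAAGGTGA on the opposite strand, differs at 3. Stretches that differ at 3 were also in windows of members that did not pass. These were ACADS, ACADVL, ACSL1, ETFB, HADH, PEX6, PEX16 and SLC25A20. The share of all windows with such a stretch was not counted. A stretch with at most 2 differing letters was in 2 member windows (4.65%; ACAA2 and 1 of the ACSL1 promoters) and in 2.97% of all windows. The GC box, in either orientation, was in 32 member windows (74.4%) and in 45.0% of all. These are matches of letters in short windows, with no binding measured. HADHA and HADHB, the subunits of the trifunctional protein, lie head to head with start sites 307 bases apart, and their windows share 194 bases.

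Rosiglitazone was compared first over all arrays, 4 with the ligand against 4 without. ECH1, CAT, ETFA, ACAA2 and CPT1A rose, by 1.49-fold to 1.79-fold, and no member fell. In all, 6 of the 45 member probe sets passed an adjusted p of 0.05, all as rises, where 0.885% of the 13338 probe sets tested passed in either direction and 0.667% as rises. At an unadjusted p under 0.05, 12 members were higher and 2 lower (background 5.24% and 4.72%). In 11 of 45 all arrays with rosiglitazone lay above all arrays without (background 3.2%), and in 0 they all lay below (background 2.95%). Changes were positive in 31 of the 45 (68.9%) and in 47.8% of all probe sets tested. The median change was 0.13 over the 45 and -0.0089 over all probe sets tested. In bulk RNA, more cells of a kind and more RNA per cell cannot be told apart.

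**Figure D1:**
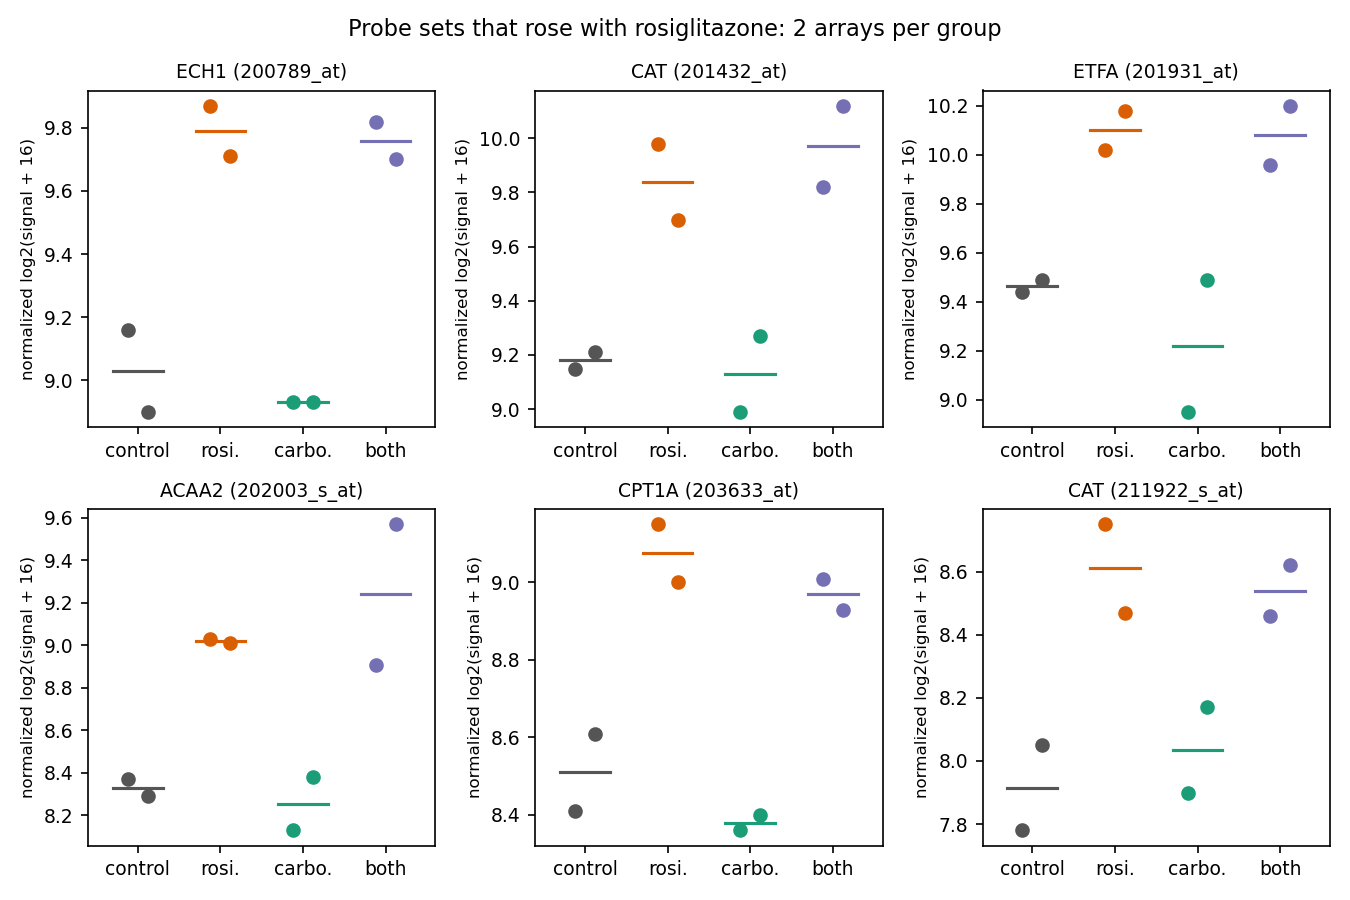
Normalized log2(signal + 16) of the 6 probe sets that passed with rosiglitazone, by group (rosi., rosiglitazone; carbo., carboplatin; both, the combination); points are single arrays, 2 per group, lines are group means, and the axes do not start at 0. In every panel the 4 points with rosiglitazone lie above the 4 without, as for ECH1 at 9.70 to 9.87 against 8.90 to 9.16.

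Among the genes that bring fatty acids into mitochondria, CPT1A, the carnitine palmitoyltransferase of the outer membrane and the rate-controlling step of entry, rose. Its brightest probe set (203633_at) was at 8.41 and 8.61 (control), 9.15 and 9.0 (rosiglitazone), 8.36 and 8.40 (carboplatin), and 9.01 and 8.93 (combination). The arrays with and without the ligand did not overlap, and the rise was 0.58 ± 0.095 (1.49-fold, adjusted p = 0.0155). A dimmer probe set (210688_s_at) was at 5.43 and 6.14 (control), 6.37 and 6.20 (rosiglitazone), 5.94 and 5.20 (carboplatin), and 6.05 and 6.0 (combination). There the arrays overlapped, and the change of 0.48 ± 0.22 did not pass (adjusted p = 0.497). The remaining CPT1A probe sets were below the brightness limit and were not tested. Of these, 203634_s_at was at 4.87 and 5.02 (control), 5.29 and 5.58 (rosiglitazone), 5.30 and 5.17 (carboplatin), and 5.14 and 5.25 (combination). The other, 210687_at, was at 5.53 and 5.42 (control), 5.44 and 5.09 (rosiglitazone), 4.69 and 5.30 (carboplatin), and 5.66 and 5.53 (combination). Both overlapped between arrays with and without the ligand.

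SLC25A20, the carrier that exchanges acylcarnitines across the inner membrane, was at 7.08 and 7.05 (control), 7.84 and 7.39 (rosiglitazone), 7.15 and 7.13 (carboplatin), and 7.60 and 7.67 (combination). All arrays with the ligand were higher than all without, but the change of 0.52 ± 0.13 did not pass (adjusted p = 0.106). CPT2, which turns acylcarnitines back into acyl-CoA inside, differed the other way, by -0.41 ± 0.17 (adjusted p = 0.462), with overlapping arrays. Its dim, untested probe set (204264_at) lay at 4.81 to 5.46 with the ligand and 4.80 to 5.38 without. The 2 tested probe sets of ACSL1, which activates long-chain fatty acids, disagreed in sign, at 0.22 ± 0.14 and -0.14 ± 0.16. Of the 6 tested probe sets of activation and entry, 4 were higher (background 47.8%) and 1 passed.

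The acyl-CoA dehydrogenases take the first electrons from the chain and pass them to the electron transfer flavoprotein, whose subunits are ETFA and ETFB, and on to ETFDH. All 6 of these genes had positive changes (background 47.8%), 0.23 to 0.75 with a median of 0.43, and 1 passed. ETFA was at 9.44 and 9.49 (control), 10.02 and 10.18 (rosiglitazone), 8.95 and 9.49 (carboplatin), and 9.96 and 10.20 (combination). All arrays with the ligand were above all without, and ETFA rose by 0.75 ± 0.12 (1.68-fold, adjusted p = 0.0122). Its partner subunit ETFB was at 9.38 and 9.31 (control), 9.35 and 9.49 (rosiglitazone), 9.22 and 9.13 (carboplatin), and 9.61 and 9.51 (combination). The ETFB change of 0.23 ± 0.085 did not pass (adjusted p = 0.359), and its control and rosiglitazone arrays overlapped.

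ACADVL, the dehydrogenase of very long chains, was at 9.46 and 9.45 (control), 9.84 and 9.93 (rosiglitazone), 9.52 and 9.25 (carboplatin), and 9.98 and 9.70 (combination). Its arrays with and without the ligand did not overlap, and its change of 0.44 ± 0.097 fell outside the threshold (adjusted p = 0.0705). ACADM, the medium-chain enzyme, was at 6.34 and 6.0 (control), 6.75 and 6.49 (rosiglitazone), 6.54 and 6.73 (carboplatin), and 6.40 and 7.14 (combination). Its arrays overlapped, and its change was 0.29 ± 0.18 (adjusted p = 0.674). The short-chain enzyme ACADS was at 0.43 ± 0.19 (adjusted p = 0.499). ETFDH, which hands the electrons to ubiquinone, was at 0.45 ± 0.20 (adjusted p = 0.502), and its lowest array with rosiglitazone (5.90) was just above its highest without (5.87). A dim, untested ETFDH probe set (205530_at) overlapped, at 4.99 to 5.67 with the ligand and 4.80 to 5.55 without.

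Of the later mitochondrial steps, hydration to thiolysis, 1 of 10 probe sets passed and 6 were higher (background 47.8%). It belonged to ACAA2, the mitochondrial thiolase that releases acetyl-CoA. The brighter ACAA2 probe set (202003_s_at) was at 8.37 and 8.29 (control), 9.03 and 9.01 (rosiglitazone), 8.13 and 8.38 (carboplatin), and 8.91 and 9.57 (combination). The arrays with and without the ligand did not overlap, and the rise of 0.84 ± 0.14 (1.79-fold, adjusted p = 0.0153) was the largest change among the members tested. The dimmer one (202002_at) was at 5.26 and 5.82 (control), 6.44 and 5.03 (rosiglitazone), 4.71 and 5.55 (carboplatin), and 4.84 and 5.63 (combination). Its arrays overlapped, and its change of 0.15 ± 0.34 did not pass (adjusted p = 0.943).

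ECHS1, the hydratase of short chains, lay at 10.54 to 10.68 over all 8 arrays, and its change of 0.0090 ± 0.069 had a 95% interval of -0.14 to 0.16. HADHB, the thiolase subunit of the trifunctional protein, changed by 0.0049 ± 0.10 (95% interval -0.21 to 0.22). Its partner subunit HADHA was read by 3 probe sets, with changes of -0.028, 0.16 and 0.15. Their array values were 9.11 and 8.90 (control), 8.93 and 9.17 (rosiglitazone), 8.99 and 9.13 (carboplatin), and 9.15 and 8.77 (combination) for 208629_s_at. They were 7.91 and 7.92 (control), 7.84 and 8.25 (rosiglitazone), 7.84 and 7.71 (carboplatin), and 7.93 and 8.0 (combination) for 208630_at, and those of 208631_s_at are given with the interaction. All 3 overlapped between arrays with and without the ligand.

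HADH, the hydroxyacyl-CoA dehydrogenase of short and medium chains, was also read by 3 probe sets, with changes of -0.024, -0.12 and -0.12. The brightest (201035_s_at) was at 7.79 and 7.74 (control), 7.84 and 7.87 (rosiglitazone), 7.90 and 7.63 (carboplatin), and 7.62 and 7.63 (combination). The second (201036_s_at) was at 7.0 and 7.16 (control), 6.84 and 6.83 (rosiglitazone), 6.93 and 7.13 (carboplatin), and 7.02 and 7.06 (combination). The dimmest (211569_s_at) was at 7.06 and 6.74 (control), 6.68 and 6.54 (rosiglitazone), 6.56 and 6.46 (carboplatin), and 6.50 and 6.59 (combination). None passed, and the arrays of each overlapped.

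Unsaturated chains need auxiliary enzymes that move or remove double bonds. ECH1, a dienoyl-CoA isomerase found in mitochondria and peroxisomes, had the smallest p-value of all members. It was at 9.16 and 8.90 (control), 9.87 and 9.71 (rosiglitazone), 8.93 and 8.93 (carboplatin), and 9.82 and 9.70 (combination). The gap between the lowest array with the ligand and the highest without was wider than the spread within either set, and ECH1 rose by 0.80 ± 0.093 (1.74-fold, adjusted p = 0.00276). The enoyl-CoA isomerases ECI1 (0.12 ± 0.10) and ECI2 (0.028 ± 0.099) did not pass, nor did the dienoyl-CoA reductase DECR1 (-0.17 ± 0.13, adjusted p = 0.743).

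In the peroxisomal oxidation group CAT, the catalase that degrades hydrogen peroxide, was the 1 gene of 5 that passed. Its brightest probe set (201432_at) was at 9.15 and 9.21 (control), 9.98 and 9.70 (rosiglitazone), 8.99 and 9.27 (carboplatin), and 9.82 and 10.12 (combination). Another (211922_s_at) was at 7.78 and 8.05 (control), 8.75 and 8.47 (rosiglitazone), 7.90 and 8.17 (carboplatin), and 8.46 and 8.62 (combination). On both, every array with the ligand was above every array without, and the rises were 0.75 ± 0.11 (1.69-fold, adjusted p = 0.00517) and 0.60 ± 0.12 (1.52-fold, adjusted p = 0.0429). The remaining CAT probe set (215573_at), below the brightness limit and not tested, was at 5.51 and 5.13 (control), 4.24 and 4.94 (rosiglitazone), 4.80 and 4.62 (carboplatin), and 5.14 and 4.70 (combination). Its arrays overlapped.

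The peroxisomal β-oxidation enzymes did not pass. The thiolase ACAA1 was at 0.32 ± 0.11 (adjusted p = 0.307) on one probe set and at 0.076 ± 0.14 on the other. The first (202025_x_at) was at 7.90 and 7.73 (control), 8.25 and 8.15 (rosiglitazone), 7.97 and 7.95 (carboplatin), and 8.36 and 8.08 (combination), with no overlap between arrays with and without the ligand. The multifunctional enzyme HSD17B4 was at 0.18 ± 0.096 (adjusted p = 0.593), also without overlap. ACOX3, the oxidase of branched chains, was at 6.56 and 6.54 (control), 6.08 and 6.56 (rosiglitazone), 6.09 and 6.48 (carboplatin), and 6.23 and 6.42 (combination) on 204241_at. It was at 5.76 and 5.60 (control), 5.42 and 5.69 (rosiglitazone), 6.14 and 5.77 (carboplatin), and 5.75 and 5.94 (combination) on 204242_s_at. Both overlapped, with changes of -0.097 and -0.12. ABCD3, a transporter that carries fatty acids into peroxisomes, differed by -0.44 ± 0.15 (adjusted p = 0.305).

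Peroxins import proteins and membrane into peroxisomes. None of their 11 tested probe sets passed, 7 were higher (background 47.8%), and the median change was 0.045. The changes ran from -0.18 for PEX5, the receptor for matrix proteins, to 0.32 for PEX3, which anchors the import of membrane proteins, and the smallest adjusted p was 0.518. PEX5 was at 7.71 and 7.84 (control), 7.63 and 7.01 (rosiglitazone), 7.73 and 7.71 (carboplatin), and 7.76 and 7.85 (combination) on its brighter probe set (203244_at). Its dim, untested one (215481_s_at) was at 5.25 and 5.36 (control), 5.69 and 5.15 (rosiglitazone), 5.16 and 5.57 (carboplatin), and 4.89 and 5.59 (combination). Both overlapped. PEX14, the docking protein, was at 0.15 ± 0.19 and 0.025 ± 0.16, PEX16 at 0.045 and 0.045, and PEX6, an ATPase of receptor recycling, at -0.022 and -0.17.

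**Figure D2:**
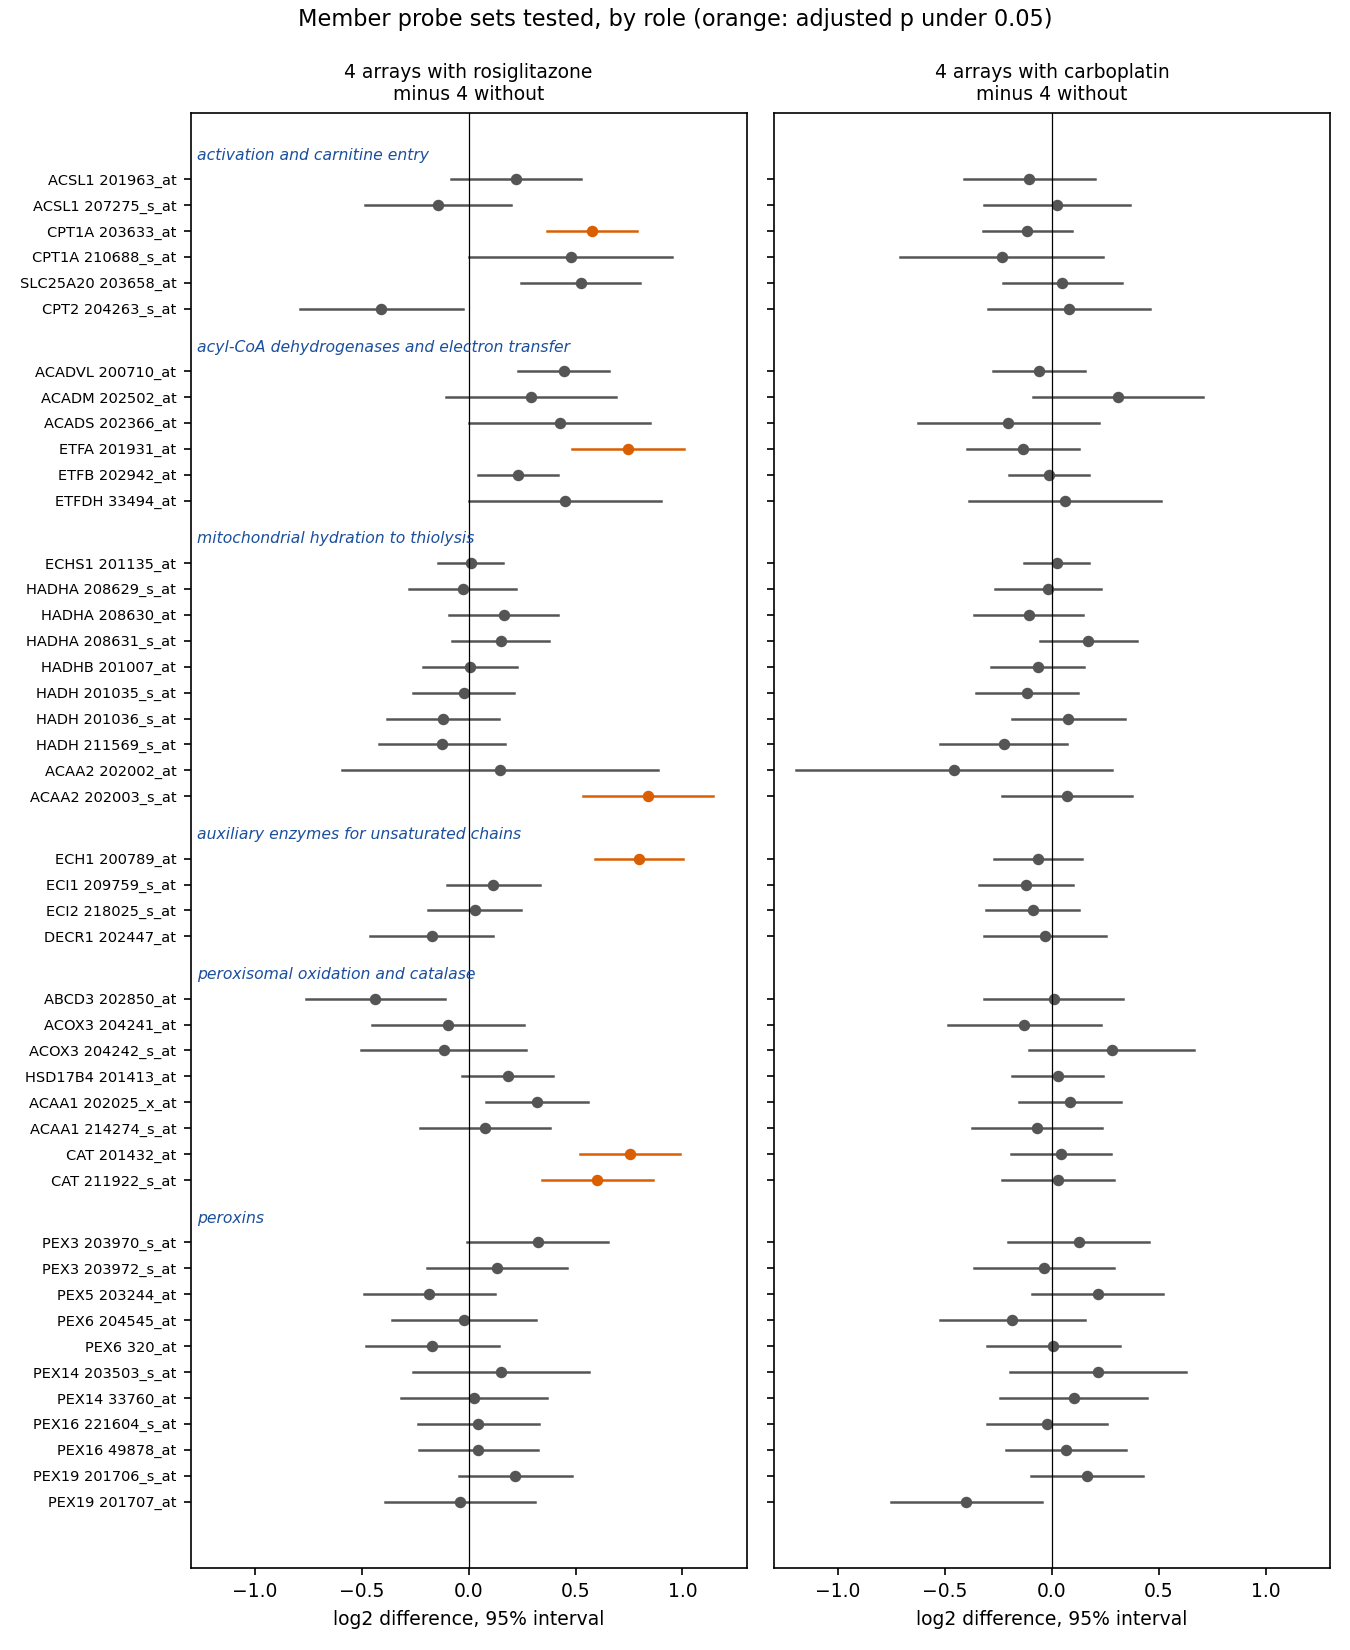
Log2 difference with its 95% interval for the 45 member probe sets tested, grouped by role, for 4 arrays with rosiglitazone minus 4 without (left) and 4 with carboplatin minus 4 without (right); orange marks adjusted p under 0.05. The left panel has 6 orange rises between 0.58 and 0.84 and no orange fall, and the right panel has no orange point.

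Other genes of the pathway came from a list of 47, of which 34 had a probe set and 28 (32 probe sets) were tested. For the ligand 14 of the 32 were higher (background 47.8%) and 18 lower, the median was -0.053, and 1 passed. It was SLC22A5, which encodes the carnitine transporter of the cell membrane, at 7.73 and 8.12 (control), 8.49 and 8.45 (rosiglitazone), 7.79 and 7.75 (carboplatin), and 8.49 and 8.41 (combination). All arrays with the ligand were above all without, and the rise was 0.61 ± 0.11 (1.53-fold, adjusted p = 0.0263). The call was lost when any 1 array other than control 2 was left out. Of the next smallest p-values, PXMP2, a channel of the peroxisomal membrane, was at -0.40 ± 0.11 (adjusted p = 0.147). CROT, the peroxisomal carnitine octanoyltransferase, was at -0.38 ± 0.15 (adjusted p = 0.391).

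The mean differences of rosiglitazone against control and of the combination against carboplatin come from separate arrays, 2 sets of 4. Normalization, the brightness limit and the estimate of spread were shared over all 8 arrays, so the 2 tests are not independent. ECH1 passed in both, by 0.76 ± 0.13 (adjusted p = 0.0413) without carboplatin and 0.83 ± 0.13 (adjusted p = 0.0352) with it. It was the 1 member called in each, against a background of 0.36% and 0.157%. CAT (201432_at) was at 0.67 ± 0.15 and 0.84 ± 0.15, and ETFA at 0.63 ± 0.17 and 0.86 ± 0.17. ACAA2 was at 0.69 ± 0.20 and 0.98 ± 0.20, and CPT1A at 0.57 ± 0.13 and 0.59 ± 0.13. None of these 4 passed in either set alone, with adjusted p-values of 0.0755 to 0.227.

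Over the 45 members the 2 sets of changes correlated at 0.638 (Pearson) and 0.604 (Spearman), and over all 13338 probe sets at 0.145 and 0.094. These are correlations across probe sets, which share arrays and in part genes. Of the 45 members, 21 were higher in both (46.7%), 5 lower in both (11.1%) and 19 of opposite sign (42.2%). Over all probe sets these shares were 25%, 27.6% and 47.4%, so the share of opposite sign was near the background. At an unadjusted p under 0.05, 11 members were higher and 1 lower without carboplatin (background 5.6% and 4.78%), and 9 and 1 with it (3.47% and 2.95%).

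**Figure D3:**
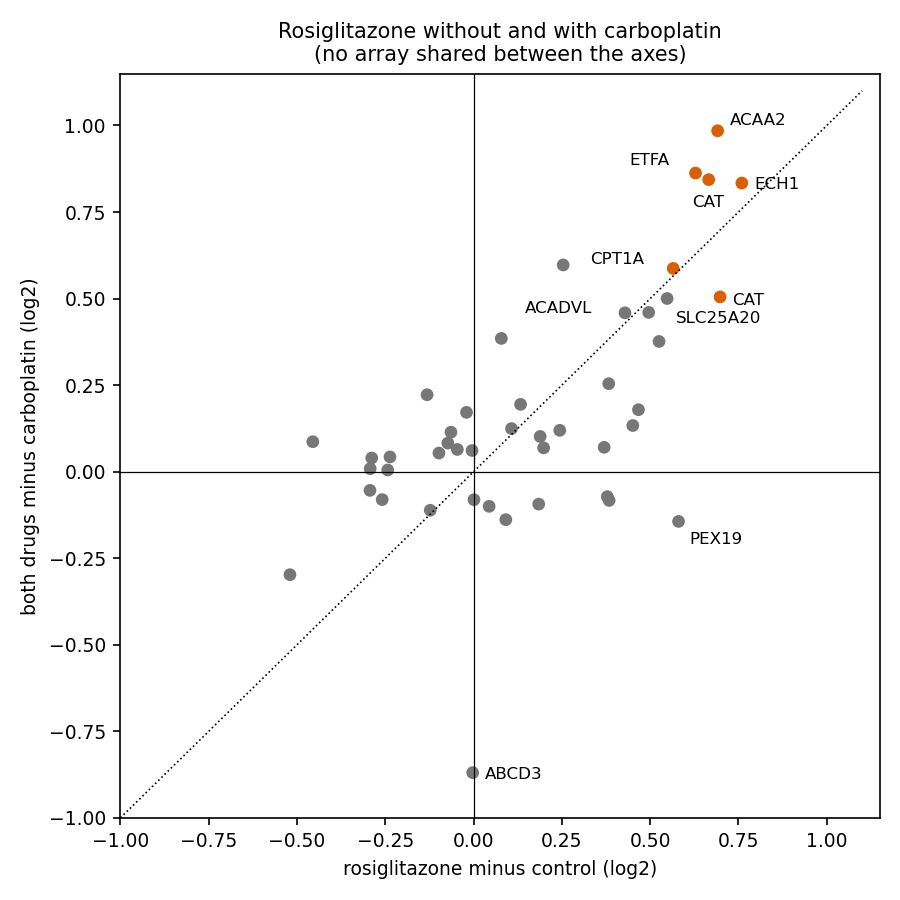
Change of each of the 45 member probe sets in rosiglitazone minus control (horizontal, log2) and in the combination minus carboplatin (vertical, log2), 2 arrays per group with no array shared between the axes; the dotted line marks equal change and orange marks probe sets that passed over all 8 arrays. The orange points lie at the upper right, while ABCD3 is at -0.0026 without and -0.87 with carboplatin.

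Whether carboplatin altered the response to the ligand was asked with the interaction, the ligand's change with carboplatin minus its change without. In limma it passed for 0 of 45 members (background 0%), and at an unadjusted p under 0.05 for 0 upward and 3 downward (background 2.62% and 3.34%). For ECH1 it was 0.074 (95% interval -0.34 to 0.49), for CAT on 201432_at 0.18 (-0.29 to 0.65) and for ETFA 0.23 (-0.29 to 0.76). For ACAA2 it was 0.29 (-0.31 to 0.90) and for CPT1A 0.022 (-0.40 to 0.44). The intervals are wide beside the rises themselves, so equal responses were not shown.

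The smallest interaction p belonged to PEX19, a chaperone for peroxisomal membrane proteins, on 201706_s_at. It was at 6.60 and 6.84 (control), 7.28 and 7.32 (rosiglitazone), 7.20 and 7.30 (carboplatin), and 7.16 and 7.04 (combination). Every treated array was above both control arrays and the combination arrays were below those of each single drug, and the interaction of -0.72 ± 0.24 did not pass (adjusted p = 0.821). The other PEX19 probe set (201707_at) had an interaction of -0.082 ± 0.32. ABCD3 was at 7.97 and 7.76 (control), 7.51 and 8.21 (rosiglitazone), 8.29 and 8.32 (carboplatin), and 7.41 and 7.47 (combination). The combination arrays were the lowest and the carboplatin arrays the highest, with an interaction of -0.87 ± 0.30 (adjusted p = 0.821). HADHA on 208631_s_at was at 8.73 and 8.77 (control), 9.12 and 9.15 (rosiglitazone), 9.35 and 8.96 (carboplatin), and 9.02 and 9.12 (combination). Both control arrays were the lowest, and the interaction was -0.47 ± 0.21 (adjusted p = 0.821), against -0.14 and 0.061 on the other HADHA probe sets.

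**Figure D4:**
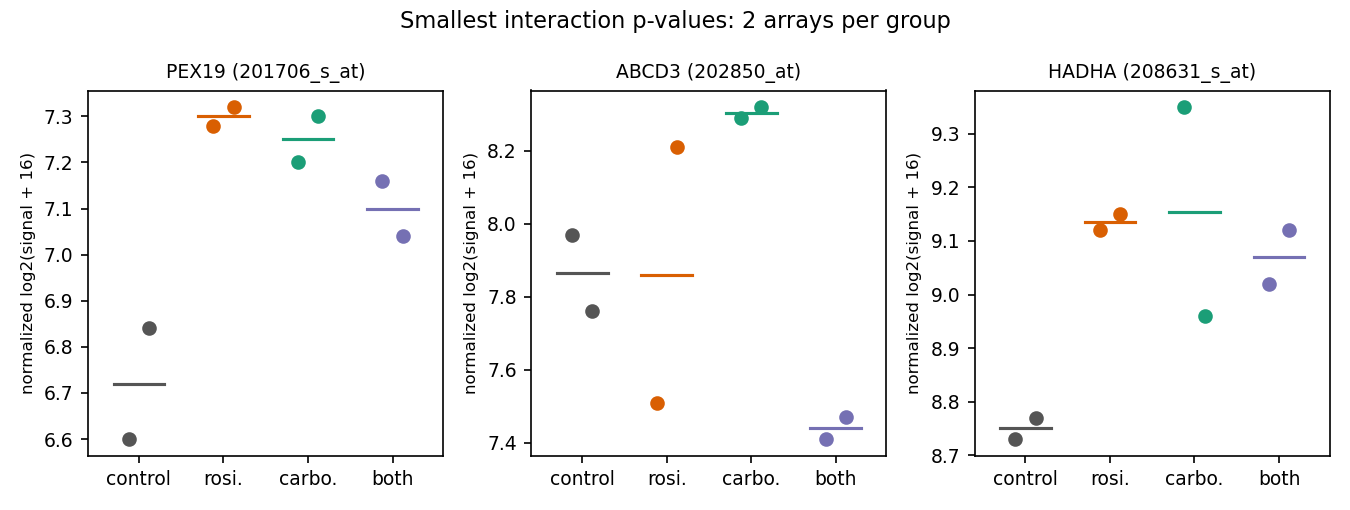
Normalized log2(signal + 16) of the 3 member probe sets with the smallest interaction p-values, by group (rosi., rosiglitazone; carbo., carboplatin; both, the combination); points are single arrays, 2 per group, lines are group means, and the axes do not start at 0. The PEX19 combination arrays (7.04 to 7.16) lie below those of each drug alone, and no interaction passed the threshold.

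Carboplatin changed no member past the threshold. Over all arrays, 4 with the drug against 4 without, limma called 0 of 45 (background 0.03%), and at an unadjusted p under 0.05 there were 0 higher and 1 lower (background 2.31% and 1.71%). The median change was -0.013. Carboplatin against control gave 0 calls (background 0.015%), with 2 higher and 0 lower at an unadjusted p under 0.05 (2.82% and 2.35%). The combination against rosiglitazone gave 0 calls (background 0.0225%), with 1 higher and 0 lower (2.2% and 2.34%).

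For the genes that rose with the ligand, the carboplatin change was -0.067 for ECH1 (95% interval -0.27 to 0.14), 0.043 for CAT on 201432_at (-0.19 to 0.28) and -0.13 for ETFA (-0.40 to 0.13). It was 0.072 for ACAA2 (-0.23 to 0.38) and -0.11 for CPT1A (-0.32 to 0.095). Each of these intervals ends below that gene's rise with rosiglitazone.

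The smallest p-value for carboplatin among members was that of PEX19 on 201707_at, at 6.14 and 6.56 (control), 6.41 and 6.29 (rosiglitazone), 6.08 and 5.90 (carboplatin), and 5.79 and 6.03 (combination). All arrays with carboplatin were below all without (1 of 45 members, background 1.16%; 0 members lay all above, background 1.2%). The change of -0.40 ± 0.16 did not pass (adjusted p = 0.997), and the other PEX19 probe set was at 0.17 ± 0.12. Next were ACADM at 0.31 ± 0.18, HADH (211569_s_at) at -0.23 ± 0.13 and HADHA (208631_s_at) at 0.17 ± 0.10. ACOX3 (204242_s_at) was at 0.28 ± 0.18 and PEX5 (203244_at) at 0.21 ± 0.14. None of the 32 other pathway probe sets passed in limma, and 0 had an unadjusted p under 0.05. The smallest p-values were those of SLC27A2, a very long-chain acyl-CoA synthetase (0.39 ± 0.20), the peroxin PEX26 (0.26 ± 0.14) and CROT (0.24 ± 0.15).

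With both drugs against control no member passed in limma (background 0.225%), and at an unadjusted p under 0.05 there were 12 higher and 0 lower (background 4.57% and 3.85%). ECH1 was closest, at 0.73 ± 0.13 (adjusted p = 0.0617), followed by CAT on 201432_at at 0.80 ± 0.15 (adjusted p = 0.0699) and ACAA2 at 0.91 ± 0.20 (adjusted p = 0.097). ETFA was at 0.61 ± 0.17 and CPT1A at 0.46 ± 0.13. This comparison shares its control arrays with rosiglitazone against control.

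The number of calls depended on single arrays. For the ligand over all arrays, 2 member probe sets passed without control 1, and 3 without control 2, rosiglitazone 1, rosiglitazone 2 or carboplatin 1, where 6 passed with all. ECH1 and CAT on 201432_at passed whichever array was left out, and CAT on 211922_s_at passed in no such fit. The ACAA2 call was lost without control 1 or 2, rosiglitazone 1 or 2, or carboplatin 1, and the ETFA call without control 1 or 2, rosiglitazone 2 or combination 2. The CPT1A call was lost without control 1, rosiglitazone 1, carboplatin 1 or 2, or combination 1. The ECH1 call in rosiglitazone against control was lost when any 1 of the 8 arrays was left out. Its call in the combination against carboplatin was lost without rosiglitazone 1 or 2, carboplatin 1 or 2, or combination 1 or 2. Medians of the deposited signals were 37.2 to 54.3 with rosiglitazone and 36.2 to 45.8 without. Among the brighter array of each group the rosiglitazone change was 0.66 for ECH1, 0.71 for CAT (201432_at), 0.72 for ETFA, 0.91 for ACAA2 and 0.56 for CPT1A. Among the dimmer arrays it was 0.93, 0.80, 0.77, 0.76 and 0.60 in the same order.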

How the data were processed

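The deposited values are intensity values on a linear scale, 1 per probe set and array, for 8 arrays grouped by their titles. For the software, background correction and scaling behind them, the sources used here give no information. The RNA was copied from oligo-dT and transcribed into biotinylated cRNA, per the labels' protocols. Signals were taken as log2(signal + 16) and quantile normalized. The 68 control probe sets and those with a mean below the 40th percentile were left out, and 13338 were tested. Names came from GEO's platform annotation, in which 19071 probe sets have 1 symbol, 1043 several and 2169 none. All 32 member genes were found in RefSeq by Entrez identifier. limma 3.58.1 (R 4.3.3) fitted 1 coefficient per group, with an intensity trend in eBayes and 4 residual degrees of freedom. The spread of each probe set was moderated with that of the others (7.1 prior degrees of freedom). Standard errors, p-values and intervals use the moderated spread. Its 8 contrasts were tested two-sided, and Benjamini-Hochberg adjustment ran over the 13338. The script was tested on simulated data, where detection was required only of shifts larger than the member rises reported here. The number of arrays limits the precision.

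Members, lists and tests were chosen with earlier results of these data known. Array values are given for members past the threshold in any contrast, the 6 of smallest p in each main effect, the 3 of smallest p in the interaction and every probe set of those genes. Array values of the members next in order for rosiglitazone (ACADVL, SLC25A20, ACAA1 and ETFB) were added after their values were seen, as were the search with differing letters and the GC box. Other pathway genes were named if past the threshold, or else the 3 of smallest p in each main effect. Counts of members were of probe sets. For ACAA2 and CPT1A, values given without a probe set are those of the brightest. With the brightest probe set standing for each gene, 5 of 30 genes passed in limma for rosiglitazone over all arrays, all as rises (background 0.667%). At an unadjusted p under 0.05, 10 of these 30 were higher and 2 lower (background 5.24% and 4.72%). Alternatives covered scaling, pseudocount (1 and 64), filter, trend, replicate block and leaving out each array. Deviations of same-numbered arrays correlated at -0.11 to 0.253 over 6 pairs of groups, above 0.1 in 1, so numbers were not taken as pairs.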

Additional observations from a re-analysis of the deposited data

Results flagged for a closer look

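For some members both arrays of a drug alone lay on one side of control, and both combination arrays lay on the opposite side of the other drug's arrays. This was so for rosiglitazone in 2 of 45 members (4.44%; 5.31% of all probe sets tested) and for carboplatin in 4 of 45 (8.89%; 6.27% of all). For PEX19 (201706_s_at), with an interaction of -0.72, it held for both drugs. The other one for rosiglitazone was PEX5 (203244_at), with an interaction of 0.54. For carboplatin the others were ABCD3 (-0.87), ETFB (0.31) and ACSL1 on 201963_at (-0.30). None of the underlying single-drug changes passed in limma (adjusted p-values 0.248 to 1), and neither did the interactions (0.821 to 0.918).

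A dim PEX3 probe set (203969_at), below the brightness limit and not tested, was higher in all 4 arrays with rosiglitazone than in the 4 without, by 0.67. It was at 4.37 and 4.61 (control), 5.59 and 4.92 (rosiglitazone), 4.59 and 4.20 (carboplatin), and 5.17 and 4.78 (combination). The brighter PEX3 probe sets were at 0.32 ± 0.15 and 0.13 ± 0.15 and did not pass.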

How the results depend on the processing

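Counts of called members were recomputed under 17 alternatives. For rosiglitazone over all arrays the count of 6 became 1 with the deposited scaling (ACAA2), 2 with median scaling (ECH1 and CAT), 3 with no filter on dim probe sets and 1 without the intensity trend (ECH1), and it ran from 2 to 4 when 1 array was left out. The deposited scaling moved the median of all probe sets to 0.17 and that of the members to 0.31. With the replicate number as a block the count was 5, which lost CAT on 211922_s_at, and the block changed no other count of member calls. With array brightness as a covariate, an alternative added once the data had been seen, it was 4. For rosiglitazone against control, and for the combination against carboplatin, the count of 1 became 0 with the deposited scaling, median scaling, no filter, no trend and the brightness covariate. Leaving out 1 array gave 0 each time for the first, and 0 to 1 for the second. For the combination against control the count of 0 became 1 with the filter at the 60th percentile (ECH1), and 0 to 1 with 1 array left out (ACAA2, without combination 1). The counts of 0 for the 3 carboplatin comparisons and the interaction stayed at 0 under the alternatives run. The causes were not tested. The rosiglitazone rises of ECH1, CAT on 201432_at, CPT1A, ACAA2 on 202003_s_at and ETFA kept their sign in all 17 alternatives and passed in 16, 15, 9, 9 and 8. CAT on 211922_s_at passed in 3 and SLC22A5 in 6. With 2 arrays per group and no detection calls, changes of dim probe sets were poorly resolved.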
